A study of Mus musculus with 9 samples.

Results

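Notch signalling passes between touching cells. A ligand of the Delta or Jagged family on a cell pulls on a Notch receptor of its neighbour, the receptor is cut by an ADAM protease and then by γ-secretase, and the freed intracellular domain enters the nucleus. There it joins the DNA-binding protein RBPJ and a Mastermind coactivator, and genes of the HES and HEY families, which encode transcriptional repressors, are the best known targets of that complex.

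Described here are 10 mouse genes of this pathway, chosen by name: the receptors Notch1, Notch2, Notch3 and Notch4, the ligands Dll1, Jag1 and Jag2, and the targets Hes1, Hey1 and Heyl. Of the 13787 genes in the data, 8 of these 10 are listed, and 7 averaged 0.5 FPKM or more across all 9 libraries, the minimum for the test. Notch4 and Heyl have no row and were not analysed here, and Dll1 was too low for the test. FPKM scale the fragments of a transcript by its length and by the size of the library, so that levels of genes of different length can be set side by side. Each of the 8 genes has 1 listed transcript, and its value is the value of that transcript.

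RNA of cultured cells from CF-1 mice was sequenced. The ciXEN cells (chemically induced cells that resemble extraembryonic endoderm stem cells) came from lines 1-1, 2-1 and 3-3, numbered 1 to 3 below, each with a library at passage 5 (ciXEN p5) and another at passage 30 (ciXEN p30). The mouse embryonic fibroblasts (MEFs) at passage 3, the kind of cell the ciXEN cells were made from, gave 3 libraries. The labels name no genetic modification in any group. By the study's methods, ciXEN lines were grown from hand-picked clones on Matrigel, in KnockOut DMEM with serum and knockout serum replacement. Their medium also held VPA, CHIR99021, RepSox, Parnate, forskolin, AM580, EPZ004777 and bFGF. MEFs grew in high-glucose DMEM, also with serum, but without the serum replacement, those chemicals or bFGF. In any comparison with MEFs, what the medium, the matrix and the kind of cell each contribute cannot be told apart, and p-values measure only the spread between these libraries, with both passages of a line counted as separate libraries.

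The libraries fit their labels. The summed FPKM of 8 XEN markers lay between 1060 and 1969 in ciXEN libraries, against 95 to 137 in MEFs, and that of 6 fibroblast markers between 3.44 and 12.6 in ciXEN libraries, against 1405 to 1699 in MEFs. Of the 8 XEN markers, Col4a1 overlapped MEFs and was not called. It was at 52.6 to 739 FPKM in ciXEN libraries and 44.0 to 99.5 FPKM in MEFs. Mural and endothelial cells, known for their own Notch genes, and macrophages were also checked. Mural cell markers, 7 of 9 listed, summed to 2.30 to 8.91 in ciXEN libraries and 1031 to 1596 in MEFs, mostly from Acta2 and Tagln, which cultured fibroblasts are known to express. Macrophage markers, 5 of 6 listed, summed to 1.48 to 3.43 in ciXEN libraries and 80.2 to 149 in MEFs, with Adgre1 at 0 in all 6 ciXEN libraries and Lyz2 at 61.0 to 121 FPKM in MEFs. Endothelial markers, 6 of 8 listed, summed to 11.0 to 23.8 in ciXEN libraries and 2.95 to 4.63 in MEFs, through Cdh5, Tek and Esam, with Emcn at 0 in all 6 ciXEN libraries. The part of any of these cell types in the results below was not tested.

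Against MEFs, the ciXEN cells held less RNA of all 3 listed receptors and of the ligand Jag1, and more of the ligand Jag2 and of the targets Hes1 and Hey1. Of the 7 tested genes, 3 rose and 4 fell with limma (adjusted p under 0.05, log2(FPKM + 1), two-sided), in a comparison in which 70.1% of all 12443 tested genes were called, 42.4% higher and 27.6% lower in ciXEN cells. The ciXEN and MEF libraries did not overlap for any of the 7, as was the case for 61.3% of all tested genes, 36.8% higher and 24.4% lower in ciXEN cells. The median size of the log2 fold change was 1.64 for the 7 genes and 0.65 for all tested genes. Notch3 and Jag2 passed the filter only through the group in which they are high, so these counts and medians describe the genes and support nothing further. In bulk RNA, fewer cells of a type and less RNA per cell cannot be told apart.

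**Figure D1:**
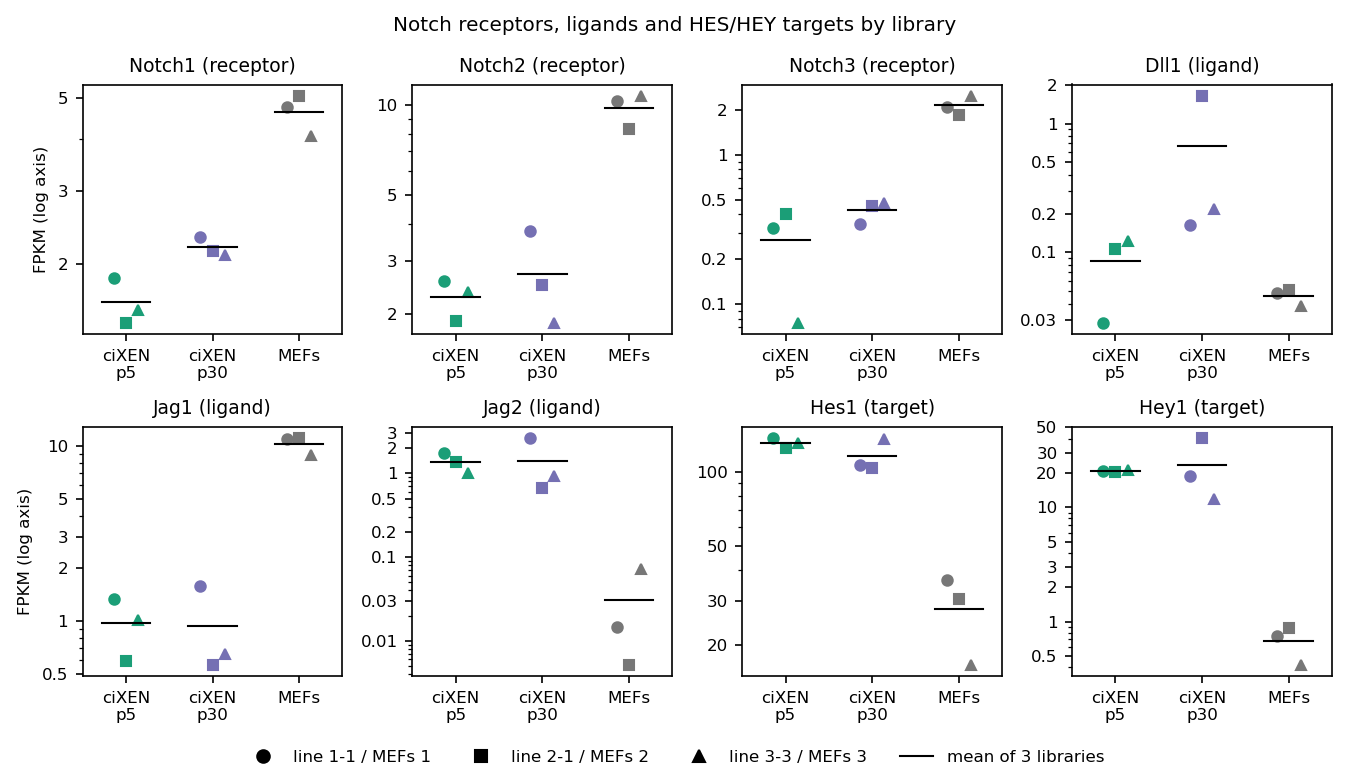
FPKM of the 8 listed genes (log axes that differ between panels) in ciXEN p5, ciXEN p30 and MEFs, with 1 point per library, shaped by line or MEF number, and a bar at the mean of 3 libraries. All ciXEN points of Notch1, Notch2, Notch3 and Jag1 lie below the MEF points, those of Jag2, Hes1 and Hey1 lie above them, and Dll1 has a single high point, 1.64 FPKM in line 2-1 at p30.

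The receptors are single-pass membrane proteins that act as both sensor and messenger. Notch1 (ENSMUSG00000026923, chr2:26457903-26516663, minus strand, GRCm38) was at 1.86, 1.45 and 1.55 FPKM in lines 1 to 3 at p5, and at 2.33, 2.16 and 2.11 FPKM at p30. In MEFs it was at 4.78, 5.07 and 4.06 FPKM. Every ciXEN library was lower than every MEF library, and every p30 library was higher than every p5 library. The log2 fold change of ciXEN cells against MEFs was −0.96 (SE 0.12, adjusted p = 5.58e-05).

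Notch2 (ENSMUSG00000027878, chr3:98013527-98150361, plus strand) was the most abundant receptor in 8 of the 9 libraries. It was at 2.59, 1.89 and 2.36 FPKM at p5 and at 3.80, 2.51 and 1.87 FPKM at p30, against 10.3, 8.32 and 10.7 FPKM in MEFs. The groups did not overlap, and line 1-1 at p30 stood above the other ciXEN libraries. Its log2 fold change was −1.64 (SE 0.17, adjusted p = 2.49e-05).

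Notch3 (ENSMUSG00000038146, chr17:32120820-32166852, minus strand), a receptor known from mural cells of vessels, was the lowest of the 3. It was at 0.325, 0.403 and 0.0752 FPKM at p5 and at 0.345, 0.451 and 0.475 FPKM at p30, against 2.09, 1.84 and 2.48 FPKM in MEFs. Line 3-3 at p5 was the lowest library. The log2 fold change was −1.22 (SE 0.13, adjusted p = 2.57e-05), which understates the ratio, since adding 1 shrinks changes of genes this low: the mean in ciXEN cells was 0.162 of that in MEFs. The mural markers Cspg4, Rgs5 and Myh11 moved the same way, between 0 and 0.0617 FPKM in ciXEN libraries and at 1.32 FPKM or more in MEFs.

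Summed over the 3 receptors, ciXEN libraries held 4.76 ± 0.977 FPKM (SD, n = 6) and MEFs 16.6 ± 1.15 FPKM (SD, n = 3). Notch1 made up 40.3% ± 3.95 of it in ciXEN cells and 28.2% ± 4.90 in MEFs, Notch2 made up 52.3% ± 6.51 in ciXEN cells and 58.9% ± 3.88 in MEFs, and Notch3 made up 7.38% ± 3.44 in ciXEN cells and 12.9% ± 1.27 in MEFs. The Notch1 share did not overlap between the groups, with a lowest ciXEN value of 35.9% and a highest MEF value of 33.3%. Nor did the Notch3 share, with a highest ciXEN value of 10.8% and a lowest MEF value of 12.1%, whereas the Notch2 shares overlapped.

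The DNA before the start of Notch1 and Notch2, the receptors whose listed transcript begins at the RefSeq start, is shown here, with that of Nrarp and Lfng, genes of the same pathway described further on, because HES and HEY proteins bind E-boxes and N-boxes and RBPJ binds TGGGAA. Capitals mark matches on either strand to CACGTG (E-box), CACNAG (N-box) and TGGGAA (RBPJ core). The windows are RefSeq sequence of GRCm38.p6, on the strand of the gene, ending before the first base of the listed transcript: Notch1 at chr2:26503823-26504072 (minus), Notch2 at chr3:98013288-98013537 (plus), Nrarp at chr2:25180508-25180757 (plus) and Lfng at chr5:140607091-140607319 (plus).
Notch1: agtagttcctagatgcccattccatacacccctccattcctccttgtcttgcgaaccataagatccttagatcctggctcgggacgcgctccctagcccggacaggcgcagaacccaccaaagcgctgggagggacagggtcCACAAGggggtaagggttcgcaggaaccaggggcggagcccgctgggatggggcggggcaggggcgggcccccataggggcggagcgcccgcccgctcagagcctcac
Notch2: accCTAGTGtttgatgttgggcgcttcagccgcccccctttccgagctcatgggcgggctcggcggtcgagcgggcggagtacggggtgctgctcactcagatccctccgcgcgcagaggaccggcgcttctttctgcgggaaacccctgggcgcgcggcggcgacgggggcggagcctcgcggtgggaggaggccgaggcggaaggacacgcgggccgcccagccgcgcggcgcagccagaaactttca
Nrarp: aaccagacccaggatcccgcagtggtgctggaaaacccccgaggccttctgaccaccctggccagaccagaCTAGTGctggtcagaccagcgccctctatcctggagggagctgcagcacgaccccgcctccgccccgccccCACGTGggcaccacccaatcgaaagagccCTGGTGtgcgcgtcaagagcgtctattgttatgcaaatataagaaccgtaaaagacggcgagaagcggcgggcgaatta
Lfng: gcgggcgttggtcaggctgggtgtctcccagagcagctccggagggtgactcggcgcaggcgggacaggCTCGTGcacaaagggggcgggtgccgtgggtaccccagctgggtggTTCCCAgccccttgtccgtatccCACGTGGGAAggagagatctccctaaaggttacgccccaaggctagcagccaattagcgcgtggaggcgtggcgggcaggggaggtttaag
The receptor windows were rich in G and C, 66.0% for Notch1 and 72.0% for Notch2, with 16 and 34 CpG, and each held a single N-box. Nrarp held an E-box and a pair of N-boxes, and Lfng held an N-box, an E-box and 2 RBPJ cores, the second of which overlaps the E-box. Nrarp and Lfng were picked from further pathway genes whose windows were scanned, a choice made after the scan. Among those not printed, TGGGAA was also found for Hes5, Hes7, Hey2, Maml2 and Maml3.

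RefSeq windows of 300 bases, from 250 before to 50 after a start, matched 7 of the 10 genes: the 4 receptors, Dll1, Jag1 and Jag2. None of them held TGGGAA, which 25.6% of all 32851 windows in the table hold, or CACGTG, which 7.15% hold. CACNAG, which 42.5% of windows hold, was found for Notch1, Notch2, Notch3 and Dll1. A RefSeq start of Dll1 and those of Jag1 and Jag2 lie 153, 124 and 281 bases inside the listed transcript, so those windows hold transcribed bases and are not printed. These are matches of letters, not sites shown to be bound.

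The ligands did not move together. Jag1 (ENSMUSG00000027276, chr2:137081456-137116644, minus strand) was at 1.34, 0.588 and 1.01 FPKM at p5 and at 1.58, 0.564 and 0.651 FPKM at p30, against 11.0, 11.1 and 8.84 FPKM in MEFs. Every ciXEN library was far below every MEF library, and line 1-1 was the highest of the lines at both passages. The log2 fold change was −2.55 (SE 0.20, adjusted p = 2.74e-06), and the mean in ciXEN cells was 0.0927 of that in MEFs.

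Jag2 (ENSMUSG00000002799, chr12:112907819-112929776, minus strand), the other Jagged ligand, was at 1.75, 1.38 and 1.02 FPKM at p5 and at 2.65, 0.672 and 0.918 FPKM at p30. In MEFs it was close to absent, at 0.0145, 0.00517 and 0.0725 FPKM. All 6 ciXEN libraries were higher than the MEF libraries, and line 1-1 was again the highest at both passages. Jag2 rose, with a log2 fold change of 1.17 (SE 0.23, adjusted p = 0.00153). That value understates the change, since adding 1 shrinks changes of genes this low. No ratio of means is given because the MEF values are so low.

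Dll1 (ENSMUSG00000014773, chr17:15367354-15376872, minus strand), a Delta ligand, was at 0.0284, 0.106 and 0.122 FPKM at p5 and at 0.163, 1.64 and 0.219 FPKM at p30, against 0.0485, 0.0507 and 0.0386 FPKM in MEFs. Line 2-1 at p30 was the only library above 1 FPKM, and the ciXEN and MEF libraries overlapped. In the limma fit without a filter on low values, over 13787 genes, the log2 fold change was 0.31 (SE 0.24, adjusted p = 0.285), which did not pass.

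The summed ligand level was lower in ciXEN cells, and its make-up shifted away from Jag1. Dll1, Jag1 and Jag2 summed to 2.74 ± 0.959 FPKM in ciXEN libraries (SD, n = 6) and 10.4 ± 1.25 FPKM in MEFs (SD, n = 3). Jag1 was 35.1% of that sum in ciXEN libraries, between 19.6% and 47.1%, and 99.2% in MEFs, between 98.8% and 99.5%. Jag2 was 50.8% in ciXEN libraries, between 23.4% and 66.6%, and 0.329% in MEFs, between 0.0463% and 0.810%. The exception among the ciXEN libraries was line 2-1 at p30, in which Dll1 was 57.0% of the ligand sum.

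**Figure D2:**
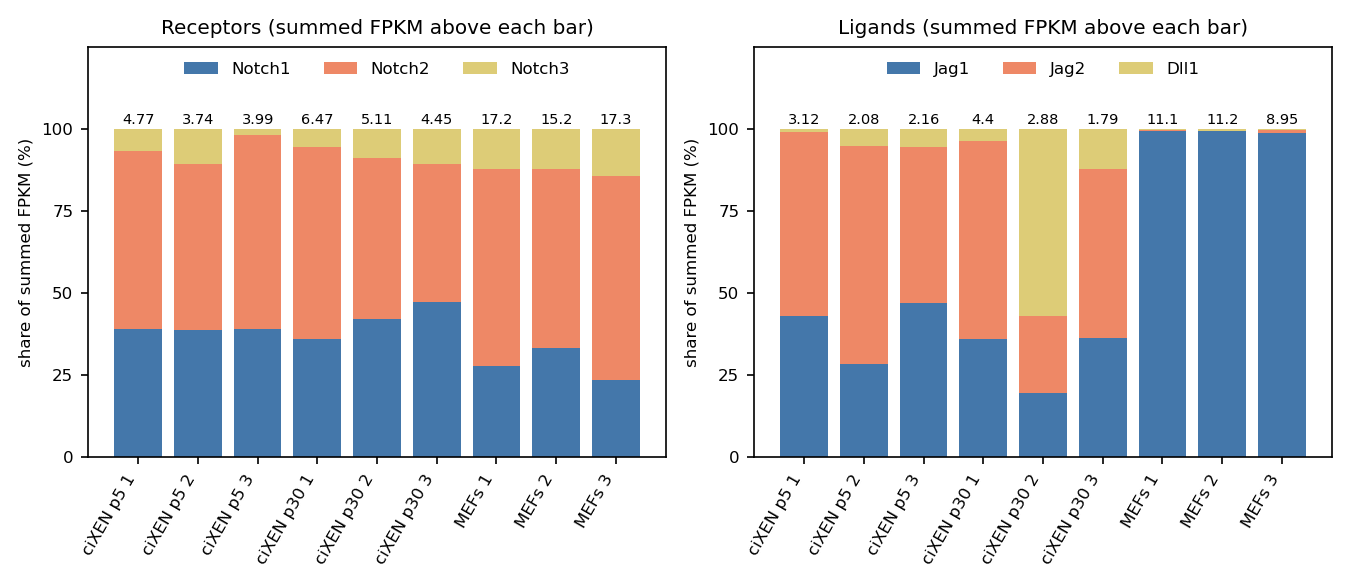
Share (%) of the summed FPKM of the 3 listed receptors (left) and of the 3 ligands (right) held by each gene, with 1 bar per library and the summed FPKM above it. Notch2 holds 42.0% to 62.2% of every receptor bar, whereas Jag1 fills at most 47.1% of the ligand bar in ciXEN libraries and at least 98.8% of it in MEFs.

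The targets were higher in ciXEN cells. Hes1 (ENSMUSG00000022528, chr16:30064384-30067796, plus strand), a basic helix-loop-helix repressor that several pathways besides Notch can induce, was at 137, 124 and 130 FPKM at p5 and at 106, 104 and 136 FPKM at p30. In MEFs it was at 36.4, 30.8 and 16.6 FPKM. The lowest ciXEN library was above the highest MEF library, and the log2 fold change was 2.16 (SE 0.21, adjusted p = 1.32e-05). By mean FPKM Hes1 ranked 455th of 13774 gene symbols in ciXEN cells and 2446th in MEFs.

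Hey1 (ENSMUSG00000040289, chr3:8663359-8667256, minus strand), a related repressor known from the vascular system and the heart, was at 20.8, 20.2 and 21.2 FPKM at p5, and at 18.8, 40.5 and 11.7 FPKM at p30. In MEFs it was at 0.748, 0.876 and 0.419 FPKM. The p5 libraries were nearly equal and the p30 libraries were spread, with line 2-1 the highest and line 3-3 the lowest. The log2 fold change was 3.71 (SE 0.30, adjusted p = 4.32e-06). On the log2(FPKM + 1) scale it was the largest of the 7 genes and the 154th largest rise among all tested genes. Adding 1 shrinks the changes of low genes such as Jag2 more, so the order by ratio of means differs. The endothelial markers Cdh5, Tek and Esam were also higher in ciXEN libraries, at 1.93 FPKM or more, against at most 0.909 FPKM in MEFs. Erg was between 0 and 0.0199 FPKM in ciXEN libraries and at 1.10 FPKM or more in MEFs. Emcn was at 0 in ciXEN libraries and at 0.384 to 0.592 FPKM in MEFs. Kdr was at 1.65 to 1.99 FPKM at p5 and 0.0911 to 0.521 FPKM at p30, against 0.243 to 0.747 FPKM in MEFs.

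Hes1 and Hey1 together made up 145 ± 11.1 FPKM in ciXEN libraries (SD, n = 6) and 28.6 ± 10.4 FPKM in MEFs (SD, n = 3), and Hey1 was 15.4% ± 6.72 of that sum in ciXEN libraries and 2.41% ± 0.380 in MEFs. Per unit of receptor FPKM, the target FPKM was 31.7 ± 7.15 in ciXEN libraries and 1.74 ± 0.656 in MEFs, without overlap. That ratio sets 2 kinds of RNA side by side and does not measure signalling.

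The order of the levels differed between the cells. In ciXEN cells Hes1 (123 ± 14.6 FPKM) stood above Hey1 (22.2 ± 9.64), followed by Notch2 (2.5 ± 0.705), Notch1 (1.91 ± 0.350), Jag2 (1.40 ± 0.720), Jag1 (0.957 ± 0.430), Dll1 (0.380 ± 0.621) and Notch3 (0.346 ± 0.145), and below Hey1 each neighbour overlapped the next. In MEFs the order was Hes1 (27.9 ± 10.2 FPKM), Jag1 (10.3 ± 1.28), Notch2 (9.78 ± 1.29), Notch1 (4.64 ± 0.520), Notch3 (2.14 ± 0.319), Hey1 (0.681 ± 0.236), Dll1 (0.0459 ± 0.00643) and Jag2 (0.0307 ± 0.0365). There, Jag1 and Notch2 overlapped, as did Dll1 and Jag2, and the other neighbours did not.

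Each passage was also set against MEFs on its own. All 7 tested genes were called at p5, where 66.5% of all tested genes were (40.7% higher and 25.8% lower), and all 7 at p30, where 64.8% were (38.2% higher and 26.6% lower), in the same directions as over both passages. None of the 7 overlapped MEFs at either passage, as for 73.9% of all tested genes at p5 (45.3% higher, 28.6% lower) and 69.8% at p30 (41.5% higher, 28.3% lower). The log2 fold changes at p5 and p30 were −1.10 and −0.82 for Notch1, −1.72 and −1.56 for Notch2, and −1.31 and −1.14 for Notch3. They were −2.53 and −2.58 for Jag1 and 1.20 and 1.14 for Jag2. They were 2.25 and 2.07 for Hes1 and 3.70 and 3.71 for Hey1. Both comparisons share the MEF libraries.

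**Figure D3:**
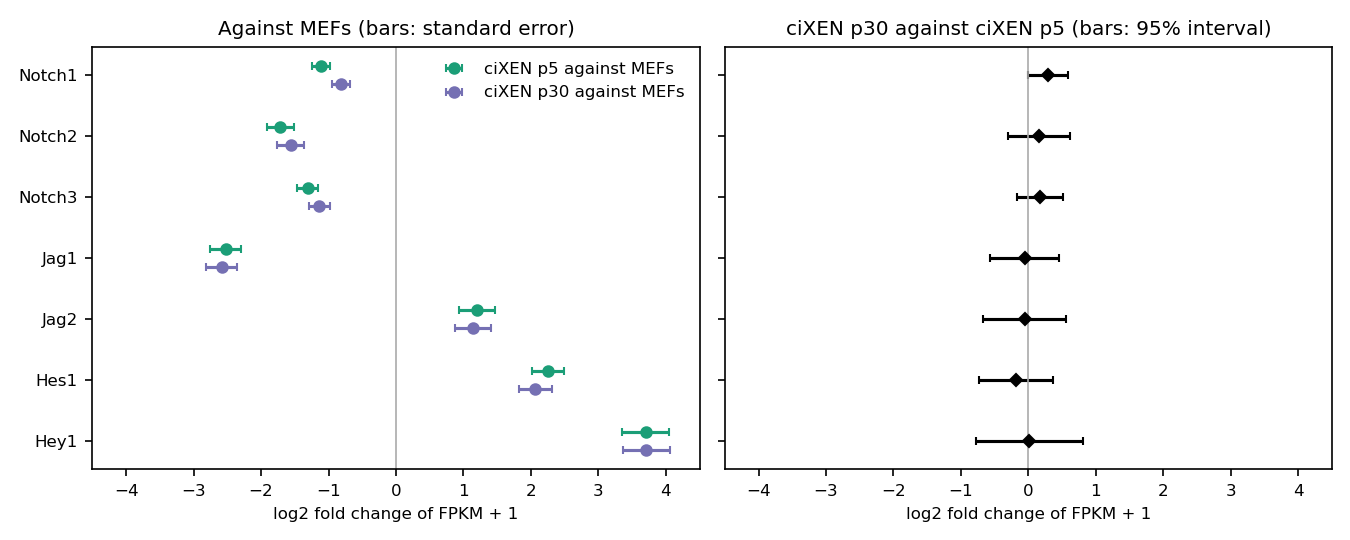
Log2 fold change of FPKM + 1 for the 7 tested genes, at left for ciXEN p5 and ciXEN p30 against MEFs with standard errors, at right for ciXEN p30 against ciXEN p5 with 95% intervals. The values of both passages against MEFs lie on the same side of 0 for each gene, and every interval between the passages spans 0.

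Between passage 30 and passage 5, none of the 7 genes passed limma's test, where 8.69% of all tested genes were called, 3.08% higher and 5.61% lower at p30. None of the 7 had an unadjusted p under 0.05 either. In an alternative fit (eBayes without trend), 3065 of 12443 genes were under that unadjusted threshold. Of the 7, Notch1 came closest. It was at 2.33, 2.16 and 2.11 FPKM at p30 against 1.86, 1.45 and 1.55 FPKM at p5, higher at p30 in 3 of 3 lines and without overlap, as were 28.8% of all tested genes in this comparison, 12.4% higher and 16.4% lower. Its log2 fold change was 0.29 (95% interval −0.01 to 0.59, adjusted p = 0.218).

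For the other genes the intervals of the log2 fold change were −0.30 to 0.61 for Notch2, −0.17 to 0.52 for Notch3, −0.57 to 0.46 for Jag1, −0.67 to 0.55 for Jag2, −0.73 to 0.36 for Hes1 and −0.78 to 0.80 for Hey1, so changes within these limits could have been missed. The lines differed in direction. Jag2 was higher at p30 than at p5 in line 1-1 (a log2 difference of 0.41) and lower in line 2-1 (−0.51), and Hey1 was higher in line 2-1 (0.97) and lower in line 3-3 (−0.80). Dll1, which was not tested, was higher at p30 in 3 of 3 lines, by 0.18, 1.26 and 0.12 on the log2(FPKM + 1) scale, and in the fit without a filter its log2 fold change was 0.52 (SE 0.28, adjusted p = 0.307).

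The other genes of the pathway were taken from a list of 59 in 8 roles, of which 50 are listed and 47 were tested. Against MEFs 15 rose, 14 fell and 18 did not pass, so 61.7% were called, a share below the 70.1% of all genes, and their median log2 fold change was 0.06, against 0.20 over all tested genes. Tle2, Neurl3, Nrarp, Ccn3 and Dner passed the filter only through the group in which they are high, so these counts, and those by role, describe the list and support nothing further. In each role the called genes with the largest rise and the largest fall are given with their values. Other called genes are named as well, a choice made after their values were seen.

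**Figure D4:**
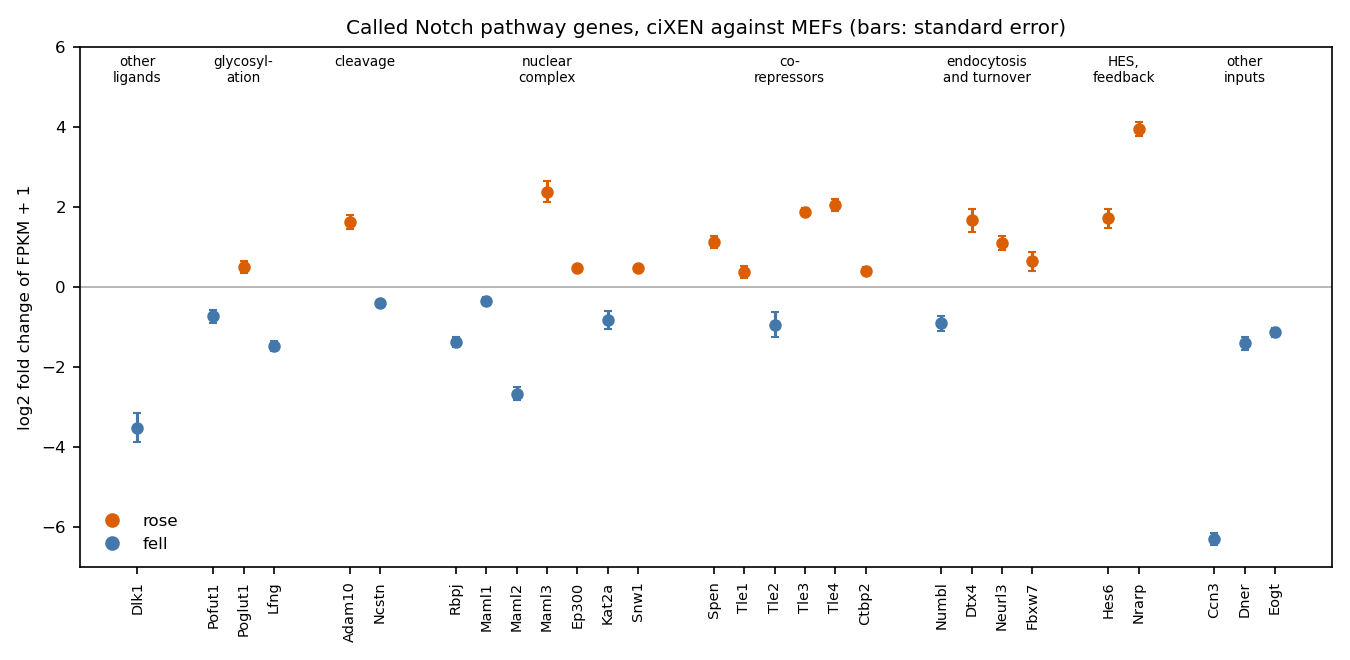
Log2 fold change of FPKM + 1, ciXEN cells against MEFs, for 28 called genes of the wider list by role, with standard errors. Nrarp (3.95) lies highest and Ccn3 (−6.30) lowest, and Maml3 and Maml2 lie on opposite sides of 0 within the nuclear complex, at 2.38 and −2.67.

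Of the other ligands, Dlk1, a Delta-like protein without the domain that binds Notch in the usual way, was the only gene tested, and it fell. It was at 3.85, 7.89 and 5.41 FPKM at p5 and at 5.86, 1.33 and 2.29 FPKM at p30, against 84.8, 35.1 and 57.2 FPKM in MEFs (log2 fold change −3.52, SE 0.37, adjusted p = 2.41e-05). Dll4 did not exceed 0.0469 FPKM in any library.

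Of the 4 tested genes for sugars on Notch, 1 rose and 2 fell. Lfng, the fringe enzyme that changes which ligands a receptor answers to, was at 1.34, 1.10 and 1.21 FPKM at p5 and at 0.606, 0.509 and 0.415 FPKM at p30, against 4.61, 4.35 and 3.32 FPKM in MEFs (log2 fold change −1.47, SE 0.13, adjusted p = 5.68e-06). It is the gene whose window above holds 2 RBPJ cores. Pofut1, which adds O-fucose, also fell. Poglut1, which adds O-glucose, rose by 0.49 (SE 0.15, adjusted p = 0.0132), and the groups overlapped. It was at 11.7, 8.77 and 11.6 FPKM at p5 and at 3.40, 4.67 and 4.06 FPKM at p30, against 5.30, 3.72 and 4.36 FPKM in MEFs, so that the p5 libraries alone stood above MEFs. Its call was lost in 3 of 22 alternatives, with adjusted p between 0.00787 and 0.314, among them leaving out MEFs replicate 2 (adjusted p = 0.0669).

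Of the 8 tested genes for receptor cleavage, 1 rose and 1 fell. Adam10, which makes the first cut of a ligand-bound receptor, was at 104, 112 and 92.1 FPKM at p5 and at 67.9, 105 and 95.5 FPKM at p30, against 33.6, 22.4 and 36.9 FPKM in MEFs (log2 fold change 1.62, SE 0.18, adjusted p = 3.16e-05). Ncstn, the nicastrin subunit of γ-secretase, fell by 0.41 on the log2 scale (SE 0.09, adjusted p = 0.00277). The γ-secretase genes Psen2, Aph1a, Aph1b and Psenen did not pass, with log2 fold changes between 0.06 and 0.25, and Aph1b was listed at 0 in line 3-3 at p30.

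Of the 8 tested genes of the nuclear complex, 3 rose and 4 fell, and the Mastermind coactivators exchanged places. Maml3 was at 14.7, 13.5 and 9.46 FPKM at p5 and at 15.5, 6.64 and 6.47 FPKM at p30, against 0.917, 1.25 and 1.49 FPKM in MEFs (log2 fold change 2.38, SE 0.26, adjusted p = 3.21e-05). Maml2 was at 1.73, 1.55 and 1.74 FPKM at p5 and at 0.851, 0.921 and 0.275 FPKM at p30, against 12.8, 11.1 and 13.2 FPKM in MEFs (log2 fold change −2.67, SE 0.15, adjusted p = 3.67e-07). The sum of Maml1, Maml2 and Maml3 was 19.0 ± 4.65 FPKM in ciXEN libraries and 22.4 ± 0.657 FPKM in MEFs. Of that sum Maml3 held 56.8% ± 8.05 in ciXEN libraries and 5.42% ± 1.15 in MEFs, and Maml2 held 6.06% ± 2.69 in ciXEN libraries and 55.1% ± 4.13 in MEFs. Rbpj, the DNA-binding partner of the receptors, fell as well. It was at 6.18, 5.67 and 5.92 FPKM at p5 and at 7.90, 4.80 and 5.55 FPKM at p30, against 17.1, 16.9 and 17.2 FPKM in MEFs (log2 fold change −1.38, SE 0.13, adjusted p = 1.37e-05). Ep300 and Snw1 rose, and Kat2a and Maml1 fell, the call of Maml1 being lost without MEFs replicate 2 (adjusted p = 0.0558, the highest of 22 alternatives, the lowest being 0.00502).

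Of the 10 tested corepressors, 5 rose and 2 fell. Tle4, a Groucho-family corepressor to which HES proteins bind, was at 7.69, 7.75 and 8.08 FPKM at p5 and at 8.81, 5.14 and 7.16 FPKM at p30, against 0.991, 1.13 and 0.956 FPKM in MEFs (log2 fold change 2.05, SE 0.15, adjusted p = 1.85e-06). Tle3, Spen, Ctbp2 and Tle1 rose and Tle2 fell. The call of Tle1 (adjusted p = 0.0492) held in 5 of 22 alternatives (adjusted p from 0.0102 to 0.218), and that of Tle2 was lost without MEFs replicate 2 (adjusted p = 0.1) or 3 (adjusted p = 0.0986), the lowest over its alternatives being 0.00428.

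Of the 11 tested genes for endocytosis and turnover, 3 rose and 1 fell. Dtx4, a Deltex-family ubiquitin ligase, was at 7.27, 9.02 and 9.50 FPKM at p5 and at 5.16, 2.16 and 7.87 FPKM at p30, against 1.01, 1.75 and 1.18 FPKM in MEFs (log2 fold change 1.67, SE 0.28, adjusted p = 5.56e-04). Numbl, a relative of the Notch inhibitor Numb, fell by 0.91 on the log2 scale (SE 0.19, adjusted p = 0.00182). Neurl3 and Fbxw7 also rose, the call of Fbxw7 (adjusted p = 0.0356) holding in 12 of 22 alternatives (adjusted p from 0.00417 to 0.133). Numb itself, Itch, Mib1 and Mib2 did not pass.

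Both tested genes of the group with other HES and HEY genes and feedback rose. Nrarp, a small ankyrin protein that Notch induces and that limits its nuclear complex, was at 17.4, 13.5 and 18.4 FPKM at p5 and at 16.8, 11.6 and 19.9 FPKM at p30. In MEFs it was at 0.102, 0.174 and 0.0361 FPKM. The groups lie far apart, with a log2 fold change of 3.95 (SE 0.17, adjusted p = 6.03e-08). The window of Nrarp above holds no RBPJ core. Hes6, which in contrast to Hes1 is known to counter HES repression, rose too. Hey2 was listed and too low for the test, at 0.218 to 1.05 FPKM in ciXEN libraries and 0.179 to 0.433 FPKM in MEFs.

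All 3 genes that feed into the pathway by other routes fell, of which Ccn3 and Dner passed the filter only through MEFs. Ccn3, a matricellular protein reported to bind Notch1, was at 0.0707, 0.164 and 0.0647 FPKM at p5 and at 0.409, 0.154 and 0.320 FPKM at p30, against 108, 70.6 and 106 FPKM in MEFs (log2 fold change −6.30, SE 0.16, adjusted p = 1.85e-09). Dner, a membrane protein proposed as a Notch ligand, and Eogt, which adds O-GlcNAc to EGF repeats, fell with it.

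Between passage 30 and passage 5, 5 of the 47 genes were called, 1 higher and 4 lower, which is 10.6% against 8.69% of all tested genes. Poglut1 fell by 1.21 on the log2 scale (SE 0.17, adjusted p = 0.00465), with the values given above, and was lower at p30 in 3 of 3 lines. Mib2, which makes a ubiquitin ligase that acts on ligands, was at 3.87, 3.08 and 2.57 FPKM at p30 and at 7.17, 6.24 and 4.92 FPKM at p5 (log2 fold change −0.77, adjusted p = 0.0333). Maml2 and Lfng, already lower than in MEFs at p5, were lower again at p30, with log2 fold changes of −0.69 (adjusted p = 0.0426) and −0.55 (adjusted p = 0.0479). Dtx3, another Deltex-family gene, was at 16.7, 14.2 and 25.1 FPKM at p30 and at 10.4, 10.3 and 10.6 FPKM at p5 (log2 fold change 0.74, adjusted p = 0.0385).

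These calls between the passages were fragile, apart from that of Poglut1, which was lost in 1 of 21 alternatives. The other 4 were lost in 10 or more alternatives each. With the line as a replicate block in a fit of the ciXEN libraries alone none of the 5 passed (adjusted p = 0.131 for Poglut1, 0.14 for Mib2, 0.174 for Maml2, 0.119 for Lfng and 0.176 for Dtx3), and that fit called 0 of all tested genes, with 2538 at an unadjusted p under 0.05. The lowest adjusted p over the alternatives was 0.00422 for Poglut1, 0.0283 for Mib2, 0.036 for Maml2, 0.0245 for Lfng and 0.0228 for Dtx3. Leaving out any single library, MEFs included, kept 1 to 3 of these 5 calls, with Poglut1 always among them, and without line 1-1 at p30 Maml3 was called as well (adjusted p = 0.0474, its highest over the alternatives being 0.708).

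The genes with patterns most like those of Notch2, Jag1 and Hes1 were found by Pearson correlation of log2(FPKM + 1) over the 9 libraries. Notch2, Jag1 and Hes1 are the receptor, ligand and target with the highest mean FPKM over all 9 libraries. In ciXEN cells alone Jag2 averaged higher than Jag1 (1.40 against 0.957 FPKM). The nearest genes were Trim59 (r = 0.997), Limch1 (0.994) and Sgcb (0.993) for Notch2, and Foxp1 (0.999), Slc48a1 (0.993) and Farp1 (0.993) for Jag1. For Hes1 they were Pmf1 (0.993), Mrpl40 (0.992) and Suds3 (0.991). Such values are common here, since the 9 libraries fall into ciXEN cells and MEFs: 903 genes reached 0.95 with Notch2, 1057 with Jag1 and 649 with Hes1. Foxp1 shared with Jag1 the order of the ciXEN libraries, at 12.5, 7.64 and 11.9 FPKM at p5 and 15.0, 7.24 and 7.91 FPKM at p30, against 108, 124 and 86.4 FPKM in MEFs. It was picked for its match with Jag1 over these same libraries, so that order is no separate result.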

How the data were processed

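RNA of 9 libraries was depleted of rRNA and made into stranded libraries with a KAPA kit and sequenced on an Illumina instrument. The authors deposited FPKM for 29599 transcripts, without read counts. The submitters' processing notes list cutadapt, HISAT2 2.0.5, StringTie, STAR 2.5.2b and the human build hg19, although transcripts carry Ensembl IDs of the mouse. The aligner and build behind the values, and whether fragments were assigned by strand, are not given in the sources used here. Notch1, Notch3 and Dll1 overlap annotated genes on the other strand that have no row. The deposited FPKM sum to between 315395 and 342201 per library, and depth is unknown. For each library a step was placed where most of its low values lay. Of the values compared with it, 26.5% to 30.4% lay within 0.1 of a whole step. Evenly spread values would give 20%, but the step was fitted to the same values, so 20% is not a chance level. Read counts could not be recovered.

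Transcripts were matched by stable ID to GENCODE M21 on GRCm38 (29521 matched, and the 78 others hold 0.158% of FPKM) and summed to 13787 genes. The 12443 averaging 0.5 FPKM or more were fitted on log2(FPKM + 1) with limma 3.58.1 in R 4.3.3 (lmFit, eBayes with trend, group means, 6 residual and 3.16 prior degrees of freedom), two-sided, with Benjamini-Hochberg adjustment over all of them, called at adjusted p under 0.05. The steps were tested on simulated data. Figures were drawn with matplotlib 3.10.9.

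The p5 and p30 libraries of a number come from the same line by their labels, and their deviations from the group means correlated at −0.00545, 0.0142 and 0.0714. MEF libraries share a number only. As alternatives, 0.1 or 0.5 was added before the log, low genes were all kept or a 1 FPKM mean was required, and libraries were rescaled in 3 ways. Further fits used eBayes without trend, a replicate block, the compared libraries alone, the highest transcript alone, 1 averaged value per line, or left out each library. Members and lists were chosen with earlier results of these data known. Named beyond the 10 genes were, in each role, the called genes with the largest rise and fall against MEFs, those called between passages up to 6, and the 3 nearest patterns, except for items that are not reported here. Every column of values belonged to a sample.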

Additional observations from a re-analysis of the deposited data

Results flagged for a closer look

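In 4 of the 8 listed genes a ciXEN library stood apart from the other 5 by Dixon's test at the 95% level, which chance alone would do in about 1 in 20 groups. Over the gene symbols that averaged 0.5 FPKM or more, 1031 of 12433 (8.29%) did so. Dll1, which is among the 4, lies below that mean and outside that share. Notch2 was highest in line 1-1 at p30, at 3.80 FPKM, with the other ciXEN libraries between 1.87 and 2.59 FPKM. Notch3 was lowest in line 3-3 at p5, at 0.0752 FPKM, with the others between 0.325 and 0.475 FPKM. Dll1 and Hey1 were both highest in line 2-1 at p30. Dll1 was at 1.64 FPKM there, with the others between 0.0284 and 0.219 FPKM, and Hey1 was at 40.5 FPKM, with the others between 11.7 and 21.2 FPKM. That library was the highest by this test for 157 genes (1.26%), against 210 for line 1-1 and 140 for line 3-3 at the same passage. Without it Hey1 remained called against MEFs, and the log2 fold change of Hey1 between p30 and p5 was −0.45 (adjusted p = 0.235, limma). The cause of these values was not tested.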

How the results depend on the processing

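Against MEFs, the calls and directions of all 7 genes held under every alternative that could test them. The highest transcript alone could not change their fold changes, since each has 1 listed transcript. With a mean of at least 1 FPKM required, Notch3 and Jag2 were not tested and 5 of 5 were called. Of the wider list 24 to 31 genes were called, against 29 as reported. No member was called between p30 and p5 under any alternative. The replicate block changed no call of a member.

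The count of 5 wider-list genes between the passages was 3 without a filter, 3 with equal medians, 2 with quantile normalisation, 3 with the replicate block in the fit of all 9 libraries, 2 with only the libraries compared, 0 with that and the replicate block, and 1 with the highest transcript alone. Leaving out a library gave 1 to 4, with Maml3, which is not among the 5, in the count of 4. Over all genes, 35.4% of calls between the passages were higher at p30, against 59.1% with equal medians, which moved the median by 0.10, and 46.6% with quantile normalisation. Equal medians moved the median of p5 against MEFs by −0.11.

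Between the passages some members that did not pass changed sign. Jag1 (−0.06 as reported) was at 0.048 with equal medians, 0.068 with quantile normalisation and −0.284 to 0.078 when a library was left out. Jag2 (−0.06) was at 0.046 with equal medians, 0.088 with quantile normalisation and −0.401 to 0.163 when a library was left out. Hey1 (0.01) was at −0.0085 with equal summed FPKM and −0.453 to 0.400 when a library was left out, the lowest without line 2-1 at p30. Notch2 (0.16) was at −0.042 without line 1-1 at p30 and at most 0.329 when another library was left out. The cause was not tested. Depth is unknown, so the counting error of values near 0 is not known.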
